A study of Mus musculus with 6 samples.

Results

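The genes described here encode proteins that join photoreceptor terminals to the bipolar cells beneath them: Lrit1, Lrit2, Lrit3, Elfn1, Elfn2, Egflam, Dag1 and Nyx. They were taken by symbol, 8 genes of the 49997 that each count table names. All 8 were detected in each library and all 8 passed the filter on low counts. RNA came from sorted photoreceptors of Rosa26-Cas9 mice, a genotype that supplies the Cas9 nuclease and was shared by both groups. An adeno-associated virus with a 7m8 coat was placed under the retina and carried either a guide RNA against Nr2e3 or a non-targeting control guide. It also carried a human GRK1 promoter in front of mCherry, so that the sort took infected photoreceptors, rods and cones together. Cells were sorted 6 months later, about 100000 per library, and each library pooled the 2 retinas of 1 animal. The stated age at injection differs, being postnatal day 21 by the series design and 4 weeks by the treatment protocol. The guide group held 3 libraries, from 1 male (replicate 1) and 2 females (replicates 2 and 3), and the control group held 3 libraries from males.

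Most members of this set carry leucine-rich repeats outside the cell and act across the synaptic cleft. Photoreceptors release glutamate onto ON bipolar cells, whose dendrites sense it with the receptor mGluR6 and the channel TRPM1. ELFN1 and, in cones, ELFN2 bind mGluR6 from the presynaptic side, LRIT3 from photoreceptors is needed for nyctalopin (Nyx) and TRPM1 to gather on the dendrite, and pikachurin (Egflam) links dystroglycan (Dag1) of the terminal to the bipolar cell. Loss of LRIT3 or nyctalopin causes congenital stationary night blindness.

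The libraries held 24705561 to 34286248 gene counts, and 3 counts were worth 0.0875 to 0.121 CPM (a gene's count relative to all gene counts of its library), a limit that covers counting error only. Nr2e3, the targeted gene, was at 2024, 1773 and 2303 CPM in guide replicates 1 to 3 and at 1695, 1608 and 1645 CPM in control replicates 1 to 3, and whole-gene counts do not read small insertions or deletions, so this does not check the labels. The 10 rod markers summed to 58860 to 60556 CPM in guide and 55021 to 62106 CPM in control libraries, led by Sag, the rod arrestin, and Pde6g, a phosphodiesterase subunit. The 11 cone markers summed to 13786 to 16762 CPM in guide and 4186 to 8652 CPM in control libraries, through Gnat2, the cone transducin, and Pde6h and Pde6c, cone phosphodiesterase subunits. Only 4 of those 11 had a fitted log2 fold change above 0, the median being -0.65, and 0 passed. Control replicate 3 stood apart, with the lowest cone sum and a microglia marker sum of 355 CPM, against 36.1 and 39.3 CPM in the other control libraries and 39.5 to 180 CPM in guide libraries. Of 17138 genes tested with edgeR's quasi-likelihood test, 59 passed an adjusted p of 0.05, which is 0.344%, and of the 8 synaptic genes 0 passed. At an unadjusted p under 0.05 there was 1 of the 8, against 5.69% of all tested genes, and DESeq2 and limma-voom each called 1 of the 8, against 1.58 and 1.04% of all tested genes. Without a filter edgeR also called 1, against 0.48% of the 32263 genes then tested.

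Directions were mixed within the set. Fitted log2 fold changes (guide over control) were above 0 for 4 genes and below 0 for 4, with a median of 0.06 against -0.01 over all tested genes. In 3 of the 8 the CPM of the groups did not overlap, Lrit3 with guide libraries higher and Lrit2 and Egflam with guide libraries lower, and over all tested genes the share was 12.2%, made up of 4.63% with guide libraries higher and 7.55% with guide libraries lower. With libraries scaled by TMM factors, which correct for differences in composition, Egflam overlapped and Dag1 did not. The share over all tested genes was not counted with this scaling.

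**Figure D1:**
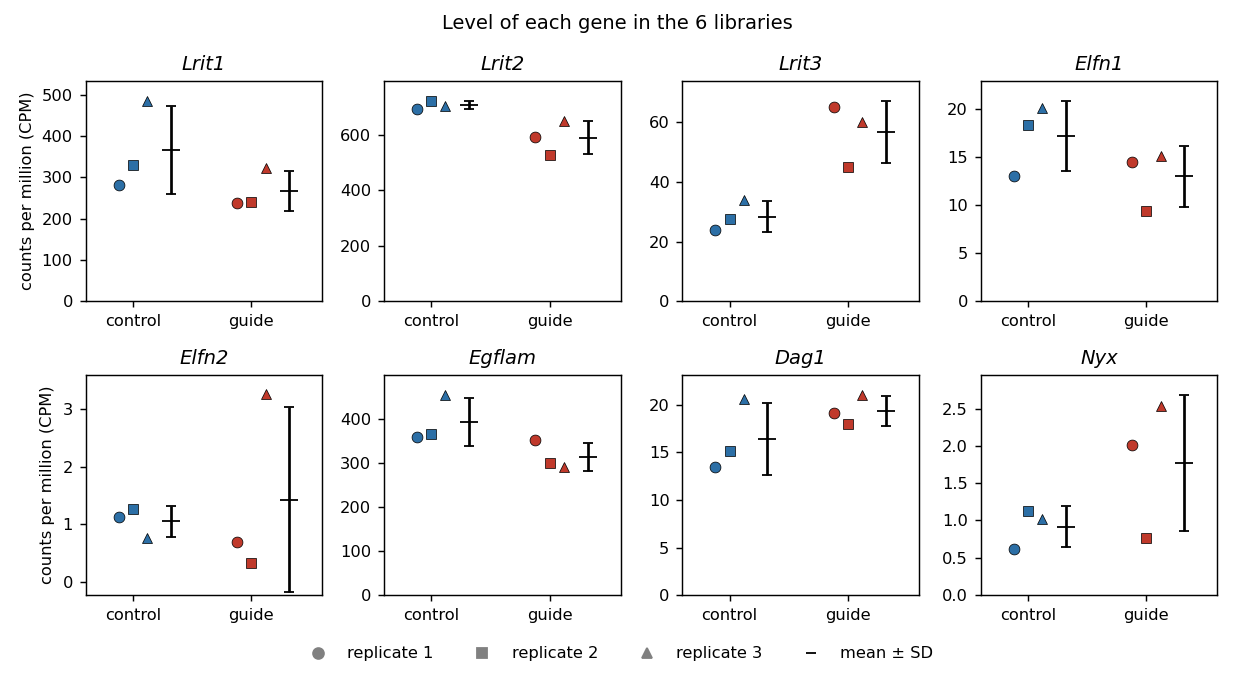
CPM, counts scaled to the library's gene total (vertical axes, each panel with its own scale) of the 8 genes in 3 control (blue) and 3 guide (red) libraries, with marker shape for the replicate number and black bars for the mean ± SD. Lrit3 is the gene whose guide libraries, 45.1 to 65.0 CPM, all lie above the control libraries, 23.8 to 33.9 CPM. The error bar of Elfn2 in the guide group reaches below 0 because guide replicate 3 lies far above the other libraries of that group.

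The Lrit family has 3 members, each a membrane protein with leucine-rich repeats, an immunoglobulin domain and a fibronectin domain. Their fitted log2 fold changes differed in sign. Lrit3, on the minus strand of chromosome 3 (GRCm38, 129787881 to 129804030 in GENCODE M21), was at 65.0, 45.1 and 60.2 CPM in guide replicates 1 to 3 and at 23.8, 27.5 and 33.9 CPM in control replicates 1 to 3. Each guide library was above each control library, and the lowest guide value was above the highest control value by more than the SD of either group. Group means were 56.7 ± 10.4 and 28.4 ± 5.12 CPM (SD, n = 3 each), and the fitted log2 fold change was 1.08 (SE 0.18), or 2.11-fold, with edgeR adjusted p = 0.0807. By p it ranked 83 of the 17138 genes, and 2.82% of genes had a larger rise in the fit. It did not pass in edgeR over 6 libraries, whereas DESeq2 (adjusted p = 3.1e-05), limma-voom with quality weights (0.00848) and edgeR without a filter on low counts (0.0169) called it higher. Over 14 alternative settings its log2 fold change stayed between 0.96 and 1.29 and its adjusted p ran from 3.1e-05 to 0.493. Without control replicate 3, the library that stood apart, the log2 fold change was 1.17 (adjusted p = 0.0752). The RefSeq span of Lrit3 shares 6555 bases with the non-coding gene Gm36130, whose mean was 0.808 CPM (guide) and 0.579 CPM (control). Reads of any shared exon could be lost or shifted, depending on the annotation and counter settings. The summed level of 11 ON bipolar markers overlapped between the groups: it came to 194 to 274 CPM in guide and 193 to 318 CPM in control libraries, with 3 of 11 above 0 in log2 fold change and 0 called, led by Prkca, a protein kinase, and Cabp5, a calcium-binding protein, and the mGluR6 gene Grm6 was at 3.59, 1.34 and 4.08 CPM in guide and 2.48, 4.39 and 4.78 CPM in control replicates 1 to 3. The cone marker sum, higher in guide libraries through Gnat2, Pde6h and Pde6c, differed between the groups in the same direction as Lrit3. Only 4 of the 11 cone markers had a fitted log2 fold change above 0, and the median was -0.65. Opn1sw, Opn1mw and Arr3 were among those below 0 (-0.83, -0.66 and -0.36). Within the control group, replicate 3 had the lowest cone sum and the highest Lrit3, and the part of cone RNA in the result was not tested. In sorted bulk RNA, a larger share of cells that make a transcript and more transcript per cell cannot be told apart.

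Lrit1, whose protein sits at rod and cone terminals and contacts mGluR6, lies on the plus strand of chromosome 14 (37054830 to 37064946). It was at 237, 240 and 322 CPM in guide replicates 1 to 3 and at 280, 330 and 484 CPM in control replicates 1 to 3. The groups overlapped, since guide replicate 3 was above control replicate 1, and control replicate 3 was the highest of all. The log2 fold change was -0.37 (SE 0.19, adjusted p = 0.957) and became -0.18 without control replicate 3. Lrit2, its neighbour (plus strand, 37067929 to 37073743), whose role in the retina is little described, was at 591, 527 and 648 CPM in guide and 693, 721 and 702 CPM in control replicates 1 to 3. All guide libraries were below all control libraries, by a small margin: the log2 fold change was -0.19 (SE 0.12, edgeR adjusted p = 0.995), so Lrit2 did not pass. Its control libraries varied little in CPM, with a coefficient of variation of 2.03%, against 29.2% for Lrit1 in the same libraries. With TMM scaling they spread more, at 717, 705 and 642 CPM in control replicates 1 to 3. The highest guide library, replicate 3, was then at 631 CPM. Lrit1 and Lrit2 do not share exons in GENCODE M21, but their RefSeq gene spans share 506 bases. The RefSeq span of Lrit1 also shares 6540 bases with that of Rgr. Reads of any shared exon could be lost or shifted, depending on the annotation used for counting.

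Because the 3 paralogs were counted in the same library, their ratios do not depend on how libraries are scaled. The level of Lrit3 per exon length was 0.433, 0.297 and 0.295 times that of Lrit1 in guide replicates 1 to 3 and 0.134, 0.131 and 0.111 times in control replicates 1 to 3. The guide libraries were all above the control libraries, and the mean log2 ratio was 1.43 higher in guide (-1.57 ± 0.32 against -3.00 ± 0.15, SD, n = 3 each), which is 2.69-fold (two-sided exact permutation p = 0.1, the smallest that 3 against 3 allows, and 0.2 after adjustment over the 4 ratios compared). Against Lrit2, Lrit3 was at 0.117, 0.0908 and 0.0986 in guide and 0.0365, 0.0405 and 0.0513 in control replicates 1 to 3. Here too the groups did not overlap, with a difference in mean log2 ratio of 1.26 (exact permutation p = 0.1, adjusted 0.2). The ratio of Lrit1 to Lrit2 overlapped between groups, with a difference of -0.17 (exact permutation p = 0.6, adjusted 0.8) that turned to 0.06 without control replicate 3. Of the summed Lrit level per exon length, Lrit3 made up 7.27 ± 1.02% in guide and 3.06 ± 0.30% in control libraries, Lrit1 21.6 ± 1.95% and 24.8 ± 5.19%, and Lrit2 71.2 ± 1.22% and 72.2 ± 5.49% (SD, n = 3 each). Lrit2 made up the largest share in all 6 libraries.

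**Figure D2:**
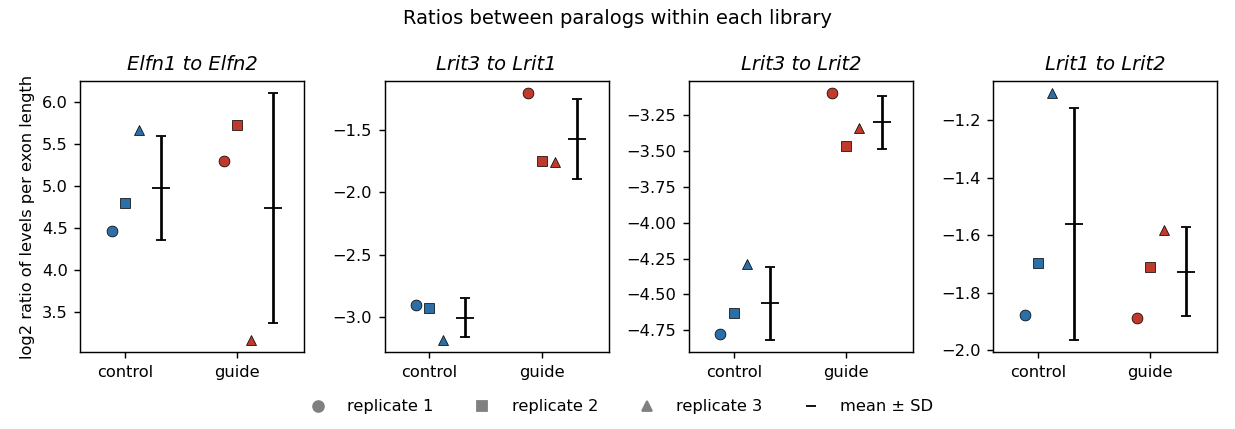
Log2 ratio of the levels per exon length of 2 paralogs within each library (vertical axes, each panel with its own scale), with control libraries in blue, guide libraries in red, marker shape for the replicate number and black bars for the mean ± SD. The ratios of Lrit3 to Lrit1 and to Lrit2 separate the groups, whereas those of Elfn1 to Elfn2 and of Lrit1 to Lrit2 overlap.

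The sequences before the Lrit genes are shown because the fitted log2 fold changes of these paralogs differ in sign. None of them passed in edgeR over 6 libraries, and a link between sequence and level was not tested. Each runs 5′ to 3′ on the gene's strand from 250 bases before to 50 bases after a listed RefSeq start (GRCm38.p6). The windows are chr14:37054580-37054879 for Lrit1, chr14:37067779-37068078 for Lrit2 (the first of its 2 listed starts) and chr3:129804087-129804386 for Lrit3. The RefSeq gene spans of Lrit1 and Lrit2 begin further upstream, at 37042475 and 37064433, and the letters before those positions are not shown. Capitals mark matches, on either strand, to TAATCC (reverse GGATTA), letters bound by the photoreceptor factor CRX, to AAGTCA (reverse TGACTT), the half-site of NR2E3, and to TGCTGA (reverse TCAGCA), part of the NRL site.
Lrit1: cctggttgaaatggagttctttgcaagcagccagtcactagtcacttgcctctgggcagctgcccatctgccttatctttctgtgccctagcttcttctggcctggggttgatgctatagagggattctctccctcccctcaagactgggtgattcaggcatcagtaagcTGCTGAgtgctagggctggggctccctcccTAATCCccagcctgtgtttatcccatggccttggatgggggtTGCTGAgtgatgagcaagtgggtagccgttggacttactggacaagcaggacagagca
Lrit2: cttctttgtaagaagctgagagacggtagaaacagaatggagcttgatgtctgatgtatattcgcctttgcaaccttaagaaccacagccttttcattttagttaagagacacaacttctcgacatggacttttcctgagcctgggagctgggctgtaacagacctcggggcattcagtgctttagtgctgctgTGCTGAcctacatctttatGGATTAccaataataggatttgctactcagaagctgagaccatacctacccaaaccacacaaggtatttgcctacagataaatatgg
Lrit3: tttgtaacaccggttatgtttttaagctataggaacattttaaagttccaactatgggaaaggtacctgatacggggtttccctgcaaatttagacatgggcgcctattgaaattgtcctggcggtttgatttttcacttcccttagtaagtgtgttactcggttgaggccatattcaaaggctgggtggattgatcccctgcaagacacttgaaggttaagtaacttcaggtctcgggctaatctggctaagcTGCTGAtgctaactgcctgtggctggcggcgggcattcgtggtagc
The CRX letters were found once for Lrit1, at position -50, and once for Lrit2, on the reverse strand at position -37, and 0 times for Lrit3. The NRL letters were found 2 times for Lrit1 (positions -80 and -8), once for Lrit2 (position -56) and once for Lrit3 (position 5, after the start). The NR2E3 half-site was found in none of these 3 windows. Among 32851 RefSeq promoters of this length, 7.06% hold the CRX letters, 15.1% the NR2E3 half-site and 19.5% the NRL letters. No overlap between matches occurred in these windows. Such matches describe letters and not binding.

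The Elfn pair was almost all Elfn1, the member called rod-type here. Elfn1 (chromosome 5, 139907943 to 139974722) was at 14.5, 9.39 and 15.2 CPM in guide replicates 1 to 3 and at 13.1, 18.3 and 20.2 CPM in control replicates 1 to 3. The groups overlapped, and guide replicate 2 was the lowest library. On the log2 scale the fold change was -0.32 (SE 0.24, adjusted p = 0.995). Elfn2 (minus strand of chromosome 15, 78667331 to 78718771), the cone-type member, was at 0.697, 0.324 and 3.26 CPM in guide and 1.13, 1.27 and 0.758 CPM in control replicates 1 to 3, from 19, 8 and 108 counts in guide and 37, 43 and 26 counts in control libraries. A single library, guide replicate 3, was above all others, while the other guide libraries were below all control libraries. The log2 fold change of 0.46 (SE 0.80, adjusted p = 0.995) therefore turned to -0.95 without guide replicate 3, and it was also below 0 with limma-voom, with the replicate block, with sex as a term and without both replicate 3 libraries. Elfn2 shares 266 exon bases with 1700041B01Rik on the opposite strand. Its RefSeq span shares 11429 bases with that gene and 6101 bases with Gm52188. Without strand, reads of shared exons may belong to these genes or be lost, depending on the annotation and counter settings. The cone marker sum was 16762, 14275 and 13786 CPM in guide and 7734, 8652 and 4186 CPM in control replicates 1 to 3. Its difference was carried by Gnat2, Pde6h and Pde6c, and only 4 of the 11 markers had a log2 fold change above 0. The part of cone RNA in the level of Elfn2 was not tested. Amacrine markers, led by Slc6a9, a glycine transporter, and Calb2, calretinin, summed to 160, 57.2 and 286 CPM in guide and 287, 347 and 145 CPM in control replicates 1 to 3, and vascular and astrocyte markers, led by Kdr, an endothelial receptor, and Gfap, a glial filament, to 12.3, 10.7 and 24.1 CPM in guide and 12.6, 15.8 and 9.71 CPM in control replicates 1 to 3. None of the 10 amacrine markers and 4 of 5 tested vascular and astrocyte markers had a log2 fold change above 0, 0 were called, and Chat, Th, Cldn5, Cdh5 and Pax2 were at 0 in at least 1 library. Both sums were highest of their group in guide replicate 3, as was Elfn2. So was the ON bipolar marker sum, at 242, 194 and 274 CPM in guide replicates 1 to 3. The part of RNA from these cells in the level of Elfn2 was not tested.

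Per exon length, the level of Elfn1 was 39.4, 53.2 and 9.01 times that of Elfn2 in guide replicates 1 to 3 and 22.2, 27.8 and 50.7 times in control replicates 1 to 3. Elfn1 was the higher of the pair in all 6 libraries. Between groups the log2 ratio differed by -0.24 (4.74 ± 1.37 in guide, 4.98 ± 0.62 in control, SD, n = 3 each, two-sided exact permutation p = 0.9, also 0.9 after adjustment), and the sign turned without guide replicate 3 (0.54) and without control replicate 3 (0.10). Within these limits no shift from the rod-type to the cone-type member was detected.

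Pikachurin and dystroglycan form the second arm of the set. Egflam (minus strand of chromosome 15, 7206120 to 7398395), which encodes the secreted pikachurin, was at 351, 299 and 291 CPM in guide replicates 1 to 3 and 358, 365 and 454 CPM in control replicates 1 to 3. The guide libraries were all below the control libraries, the closest pair being guide replicate 1 and control replicate 1, and with TMM scaling the groups overlapped. Egflam had a fitted log2 fold change of -0.24 (SE 0.14, adjusted p = 0.995), which was closer to 0, at -0.07, with sex as a term and at -0.09 without both replicate 3 libraries. Dag1 (minus strand of chromosome 9, 108204634 to 108263958), the matrix receptor that binds pikachurin through its sugar chains, was at 19.1, 17.97 and 21.1 CPM in guide and 13.5, 15.2 and 20.6 CPM in control replicates 1 to 3. Control replicate 3 reached the guide range and the other control libraries lay below it. For Dag1 the fit gave 0.32 on the log2 scale (SE 0.19, edgeR adjusted p = 0.995). This became 0.46 without control replicate 3. Muller glia, which also make dystroglycan, had marker sums of 745, 1159 and 1012 CPM in guide and 573, 589 and 1181 CPM in control replicates 1 to 3, led by Clu, clusterin, and Glul, glutamine synthetase, with 4 of 10 above 0 in log2 fold change and 0 called. Dag1 and this sum were both high in control replicate 3. In the sum this came through Clu, at 315, 311 and 1024 CPM in control replicates 1 to 3. Glul, at 119, 124 and 66.6 CPM, and Rlbp1, at 69.3, 94.7 and 41.0 CPM, were lowest of the controls in replicate 3. So were Slc1a3, Aqp4, Vim, Sox9 and Abca8a, whereas Apoe was highest there and Kcnj10 lay between. The part of glial RNA in the level of Dag1 was not tested.

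Nyx (plus strand of chromosome X, 13466110 to 13489313) encodes nyctalopin, which belongs to the bipolar side of the synapse. It was at 2.02, 0.769 and 2.54 CPM in guide and 0.613, 1.12 and 1.02 CPM in control replicates 1 to 3, from 55, 19 and 84 counts in guide and 20, 38 and 35 counts in control libraries. Guide replicates 1 and 3 were above all controls and guide replicate 2 lay among them. The RefSeq span of Nyx shares 2457 bases with Gm14506, and reads of any shared exon could be lost or shifted. For Nyx the fitted log2 fold change was 1.01 (SE 0.54, adjusted p = 0.967), about that of Lrit3 in size with a larger error. Nyx is X-linked, the male guide library was at 2.02 CPM and the female guide libraries were at 0.769 and 2.54 CPM. All control libraries were male, so sex and guide are largely confounded. With sex as a term, which rests on the 1 male guide library, the log2 fold change was 1.23. The ON bipolar marker sum was 242, 194 and 274 CPM in guide and 318, 304 and 193 CPM in control replicates 1 to 3, in the guide group in the same order as Nyx and in the control group not.

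**Figure D3:**
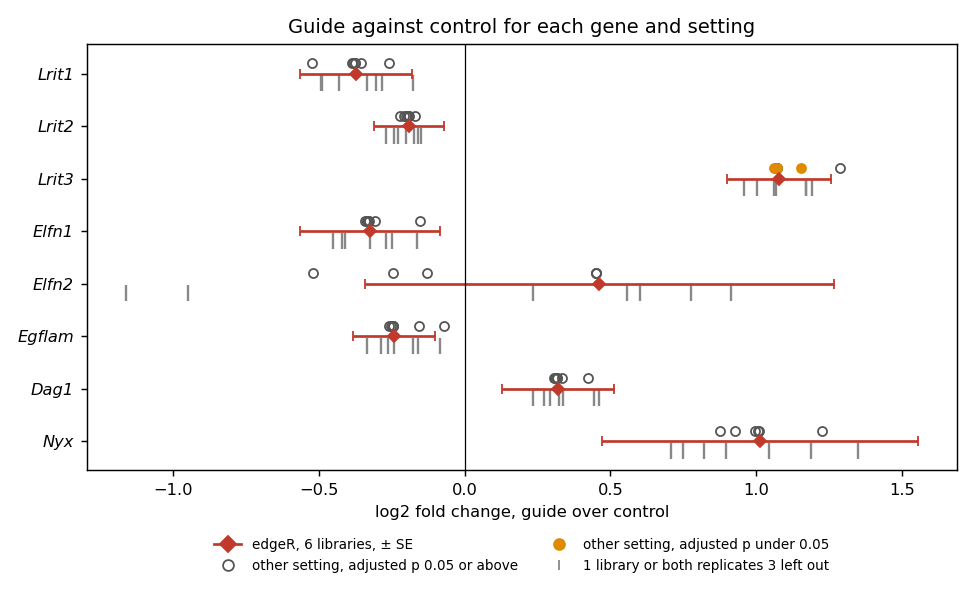
Log2 fold change (guide over control, horizontal axis) of each gene in edgeR over 6 libraries (red diamonds with SE), in other settings (circles, filled orange where the adjusted p was under 0.05) and with libraries left out (grey ticks). Lrit3 lies between 0.96 and 1.29 in all 14 alternatives, whereas Elfn2 lies on both sides of 0.

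The order of levels per exon length was the same in both groups. In control libraries, in CPM per kilobase of exon (mean ± SD, n = 3), Lrit2 was at 242 ± 4.92, Lrit1 at 84.4 ± 24.6, Egflam at 64.1 ± 8.76, Lrit3 at 10.4 ± 1.87, Elfn1 at 4.12 ± 0.88, Dag1 at 2.59 ± 0.59, Nyx at 0.177 ± 0.052 and Elfn2 at 0.130 ± 0.033. In guide libraries, Lrit2 was at 202 ± 20.8, Lrit1 at 61.6 ± 11.2, Egflam at 51.2 ± 5.29, Lrit3 at 20.7 ± 3.80, Elfn1 at 3.12 ± 0.76, Dag1 at 3.05 ± 0.25, Nyx at 0.342 ± 0.175 and Elfn2 at 0.176 ± 0.197. Neighbours in this order that overlapped between libraries in both groups were Lrit1 and Egflam, Elfn1 and Dag1, and Nyx and Elfn2. The remaining steps, from Lrit2 to Lrit1, from Egflam to Lrit3, from Lrit3 to Elfn1 and from Dag1 to Nyx, separated the genes in all libraries of both groups. Exon lengths come from GENCODE M21, which may not be the annotation used for counting. The longest transcript in place of all exons gave the same order in control libraries and was not tried in guide libraries. The order shared by both groups therefore rests on the length of all exons.

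The partners of these proteins held no called gene by edgeR in 6 lists. Over all tested genes, 8304 of 17138 had a log2 fold change above 0 and 5.69% had an unadjusted p under 0.05. Of 11 genes of the mGluR6 complex, 0 passed and 1 had an unadjusted p under 0.05. Their median log2 fold change was -0.26 against -0.01 over all tested genes, and 9 of 11 were below 0. The most abundant were Gnb5, the G beta subunit of the RGS complex that photoreceptors also make, at 874 ± 173 against 955 ± 40.8 CPM (log2 fold change -0.06, SE 0.15), Ric8b, a chaperone of G alpha subunits, at 87.6 ± 19.5 against 124 ± 20.3 CPM (-0.43, SE 0.17, adjusted p = 0.786), and Trpm1, the ON bipolar channel, at 25.5 ± 17.4 against 29.3 ± 7.73 CPM (-0.16, SE 0.45). Of 15 genes of the presynaptic calcium channel and release apparatus, 0 passed and 1 had an unadjusted p under 0.05 (median 0.03). Cplx4, a complexin, had a log2 fold change of -0.12 (SE 0.13), Unc119, a lipid-binding chaperone of transducin, 0.09 (SE 0.13), and Cabp4, a regulator of the calcium channel, 0.10 (SE 0.13). Cplx3, a second complexin, had the smallest p, at 181, 155 and 206 CPM in guide and 352, 312 and 196 CPM in control replicates 1 to 3 (-0.62, SE 0.25, adjusted p = 0.843).

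Of 18 genes of the dystrophin complex and its ligands, 12 were tested and 0 passed, 0 of them at an unadjusted p under 0.05. The median was -0.27 and 11 of 12 were below 0, whereas 8304 of all 17138 tested genes were above 0. Dmd, dystrophin, was at 179 ± 27.4 against 220 ± 40.3 CPM (-0.22, SE 0.17), Sgce, epsilon-sarcoglycan, at 32.6 ± 8.52 against 41.2 ± 6.43 CPM (-0.24, SE 0.24), and Sntb2, a syntrophin, at 31.8 ± 3.89 against 36.9 ± 5.64 CPM (-0.13, SE 0.18). Of 18 enzymes that add sugars to dystroglycan or supply them, 0 passed and 0 had an unadjusted p under 0.05, with a median of 0.05. Dpm2, a subunit of dolichol-phosphate mannose synthase, was at 0.05 (SE 0.12), Gosr2, a Golgi trafficking protein, at -0.29 (SE 0.14, adjusted p = 0.936) and B4gat1, a glucuronyltransferase, at -0.02 (SE 0.32) on the log2 fold change scale.

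Of 47 other neuronal proteins with leucine-rich repeats or their ligands, 35 were tested and 0 passed by edgeR (median -0.25). At an unadjusted p under 0.05 there were 2 of the 35, against 5.69% of all tested genes. Lrfn2, a synaptic adhesion protein, had the smallest p, at 9.24, 8.5 and 14.2 CPM in guide and 2.42, 2.18 and 4.52 CPM in control replicates 1 to 3. Its groups did not overlap, and the fitted log2 fold change was 1.89 (SE 0.35, adjusted p = 0.128). In this list 1 of 35 tested genes (Lrfn2) had all guide libraries higher, against 4.63% of all tested genes, and 1 (Lrig1) had all guide libraries lower, against 7.55%. Lrig2 (-0.14, SE 0.21), Lrig1 (-0.92, SE 0.31, adjusted p = 0.643) and Rtn4rl1 (-0.25, SE 0.18), the most abundant of this list, did not pass. Lrig1 was at 14.4, 16.3 and 21.9 CPM in guide and 26.0, 25.1 and 54.9 CPM in control replicates 1 to 3, again with control replicate 3 highest.

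Of 32 other synaptic adhesion genes, 30 were tested and 0 passed by edgeR (median -0.32). At an unadjusted p under 0.05 there were 2 of the 30, against 5.69% of all tested genes. Tenm3, a teneurin, had the smallest p, at 15.4, 28.7 and 21.1 CPM in guide and 7.26, 5.34 and 3.47 CPM in control replicates 1 to 3. All guide libraries were above all control libraries, and the fitted log2 fold change was 2.08 (SE 0.39, adjusted p = 0.129). Cdhr1, a photoreceptor cadherin whose gene neighbours Lrit2 (-0.13, SE 0.14), Ncam1, a neural cell adhesion molecule (-0.65, SE 0.20, adjusted p = 0.522), and Pcdh15, a protocadherin (0.35, SE 0.24), were the most abundant. Here 1 of 30 tested genes (Tenm3) had all guide libraries higher, against 4.63% of all tested genes. All guide libraries were lower for 2 (Cdhr1 and Ncam1), against 7.55%. Lrfn2 and Tenm3 were called higher in the same 3 settings as Lrit3, by DESeq2 (adjusted p = 5.31e-05 for Lrfn2 and 3.71e-05 for Tenm3), by limma-voom (0.00654 and 0.0206) and by edgeR without a filter (0.0221 and 0.00407). Lrfn2 also passed without control replicate 3 (0.0436), a setting in which 0.5% of all tested genes did. Over the 14 alternatives, the highest adjusted p was 0.563 for both Lrfn2 and Tenm3.

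**Figure D4:**
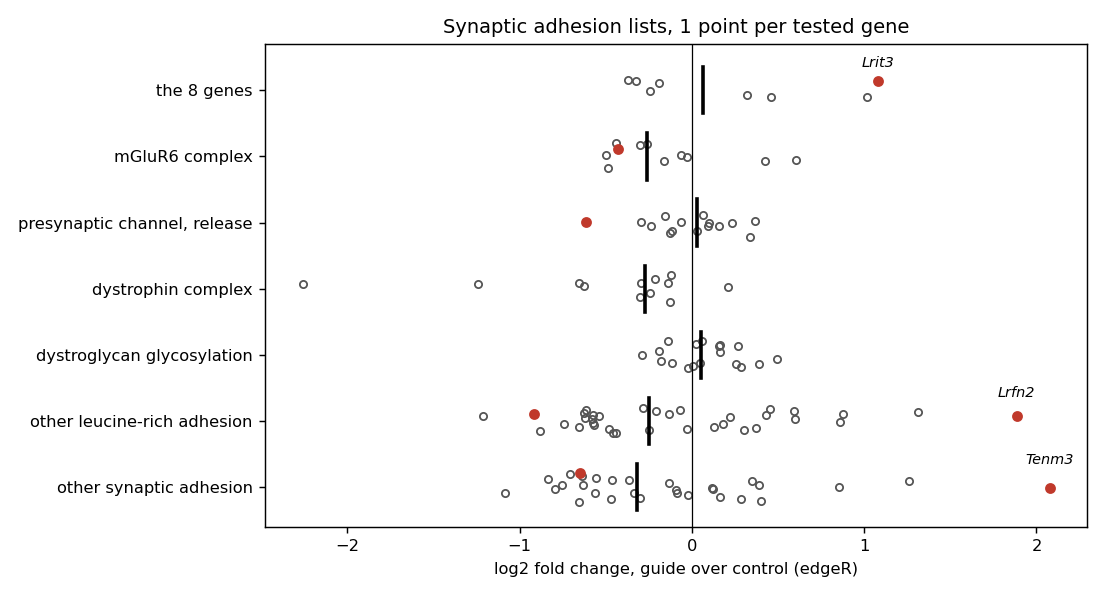
Log2 fold change (guide over control, horizontal axis) of each tested gene in the set and in 6 lists of related genes (rows), with red points for an unadjusted p under 0.05 and black bars for the median of each list. Lrit3, Lrfn2 and Tenm3 are the points with an unadjusted p under 0.05 on the right side, and the other red points lie below 0.

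Across the 6 libraries, Pearson correlations of log2(CPM + 0.5) were 0.705 between Lrit1 and Lrit2, 0.804 between Lrit1 and Elfn1 and 0.827 between Lrit2 and Elfn1. Egflam had correlations of 0.702 with Lrit1, 0.608 with Lrit2 and 0.711 with Elfn1. Lrit3 had correlations of -0.349 with Lrit1, -0.630 with Lrit2, 0.771 with Dag1 and 0.802 with Nyx. These describe 6 libraries in 2 groups that also differ in depth and composition. Among 8810 genes with a mean of at least 5 CPM, those with the pattern most like Lrit1 over the 6 libraries were Slc1a7, a glutamate transporter of photoreceptor terminals (r = 0.998), Adam1a (0.997) and Polr3e (0.995). For Lrit2 they were Kif5a, a kinesin (0.998), Tmem50b (0.997) and Ndrg1 (0.997), and for Lrit3 Bcr (0.988), Lca5, the ciliary protein lebercilin (0.987), and Rfx5 (0.986). For Elfn1 they were Crebl2, Abcf3 and Cep85, for Elfn2 Ide, Capza1 and Camkv, for Egflam Klhl30, Tmem184c and Ncoa2, for Dag1 Klhl17, Iqgap1 and Zbed3, and for Nyx Aprt, Rae1 and Tsn. With so many candidates and 6 points, values of this size are found for each gene of the set.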

How the data were processed

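Each of the 6 libraries was deposited by the authors as raw read counts per gene symbol. The submitters' processing notes name build GRCm38 (mm10), trimming by cutadapt, the aligner STAR (2.7.3a), the counter HTSeq (0.12.4) and DESeq2 (1.42.0). Annotation and strand setting: not given in the sources used here. The cDNA kit (SMARTer Ultra Low, per the labels' protocols) does not mark strand. The 5 entries that name no gene, 21.6 to 23.7% of counts, were left out. The comparison of groups used edgeR (4.0.16, under R 4.3.3; TMM factors, filterByExpr with min.count 10, glmQLFit and glmQLFTest, group as the only term), with Benjamini-Hochberg adjustment over 17138 genes and a threshold of 0.05. The procedure was run on simulated counts with the same scatter setting for all genes. That simulation held no library standing apart, as control replicate 3 did here, and so does not cover this feature. Each SE was taken from the log2 fold change and the root of its F statistic. Ratios used counts plus 0.5 and exact permutation tests. Alternatives used DESeq2 1.42.0, limma 3.58.1 (voom), other filters and scaling, sex, the replicate number and left-out libraries. Replicate libraries come from separate animals and no pair within a group agreed within sampling noise. In each list of partners, the 3 most abundant genes and the gene of smallest p are named, except for 1 gene that is not reported here. Patterns most like a gene are the 3 highest correlations, without unnamed transcripts and Y-linked genes. The genes and lists were chosen with earlier results of these data known. Promoter sequences are from RefSeq (GRCm38.p6), with all 8 genes matched.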

Additional observations from a re-analysis of the deposited data

How the results depend on the processing

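The number of genes called among all tested, 59 in the main analysis, was 271 with DESeq2, 179 with limma-voom, 155 without a filter, 32 with the replicate block, 6 with sex as a term, and 14 to 89 with a library left out. Of the 8 synaptic genes, 0 were called in the main analysis, with the replicate block or with any library left out, and 1, Lrit3, was called with DESeq2 (log2 fold change 1.07), limma-voom (1.15) and no filter (1.06). In the partner lists, 2 genes were called in each of these 3 settings and 0 to 1 with a library left out. The log2 fold change of Elfn2 reversed with limma-voom (-0.25), the replicate block (-0.13) and sex as a term (-0.52). It also reversed without both replicate 3 libraries (-1.16) and without guide replicate 3 (-0.95). With any other single library left out it stayed above 0 (0.23 to 0.91). With a library left out, the difference in log2 ratio ran from -0.74 to 0.54 for Elfn1 to Elfn2 and from -0.32 to 0.061 for Lrit1 to Lrit2. The other 6 genes, apart from Elfn2 and Lrit3, kept their direction and stayed at an adjusted p of 0.05 or above in each setting that tested them. The cause of these differences was not tested. Replicate numbers name different animals, and deviations from the group mean correlated at 0.164, -0.136 and 0.108 between same-numbered libraries, so that the replicate block rests on a shared number only. It gave Lrit3 a log2 fold change of 1.07 (adjusted p = 0.207). Depth limits Elfn2 and Nyx most, with 8 to 108 and 19 to 84 counts per library, and neither was tested with a minimum mean of 5 CPM.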

Other observations

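The chromosomal neighbours of the Lrit genes were read in the same test. In the cluster of Rgr, Lrit1, Lrit2 and Cdhr1 on chromosome 14, Rgr, a retinal G protein-coupled receptor of pigment epithelium and Muller glia, averaged 0.897 and 0.706 CPM (guide first, then control, as for the other genes), with a fitted log2 fold change of 0.41 (SE 0.88). Cdhr1 averaged 1756 and 2036 CPM (-0.13, SE 0.14), and edgeR gave both genes an adjusted p of 0.995. Beside Lrit3 on chromosome 3, Rrh, which encodes peropsin and lies 378 bases away, averaged 0.959 and 2.20 CPM (-1.16, SE 0.68), and Egf, 32565 bases away on the other side, 8.03 and 9.77 CPM (-0.22, SE 0.49), again with edgeR adjusted p = 0.995 for each. Neither neighbour of Lrit3 passed, and both had log2 fold changes below 0. Bsn, which encodes the active zone protein bassoon and lies 14250 bases from Dag1, averaged 11.7 and 10.7 CPM (0.23, SE 0.46, edgeR adjusted p = 0.995). Of the genes on either side of Nyx on chromosome X, Ddx3x averaged 168 and 106 CPM (0.73, SE 0.13, edgeR adjusted p = 0.108), with guide libraries all above control libraries, and Cask 65.2 and 82.7 CPM (-0.27, SE 0.12, edgeR adjusted p = 0.907), with guide libraries all below. The guide group held 2 females and the control group males only, and the part of sex in these X-linked values was not tested. Beside Elfn1, Psmg3 (0.39, SE 0.17, edgeR adjusted p = 0.902) had all guide libraries higher and Mad1l1 (-0.30, SE 0.17, edgeR adjusted p = 0.977) had all guide libraries lower. Cdhr1 also had all guide libraries lower. Of all tested genes, 4.63% had all guide libraries higher and 7.55% had all guide libraries lower. The groups overlapped for Cyth4 (-0.29) and Mfng (-0.84) beside Elfn2, Lifr (-0.06) beside Egflam and Nicn1 (0.20) beside Dag1. They also overlapped for Rgr, Egf, Rrh and Bsn. Gdnf, on the other side of Egflam, was not among the tested genes.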
